A study of Drosophila melanogaster with 6 samples.

Results

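The dpr and DIP genes of Drosophila melanogaster encode cell-surface proteins of the immunoglobulin superfamily that neurons use to recognise partners. They were taken from the authors' deposited table as every row whose symbol is dpr with a number or DIP- with a Greek letter name, which gave 30 genes, 21 dpr and 9 DIP, of 17117 rows. Of these, 27 had reads in at least 1 library: all 21 dpr genes, and 6 of the 9 DIP genes. DIP-eta, DIP-iota and DIP-zeta had no read in any of the 6 libraries.

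A Dpr protein on the membrane of 1 neuron binds particular DIP proteins on the membrane of another, and the pairs help synaptic partners to find each other and to survive. The best described cases are in the optic lobe, where Dpr11 on R7 photoreceptors meets DIP-gamma on amacrine neurons, and at neuromuscular junctions. In the mushroom body, the learning centre of the fly brain, Dpr12 on gamma Kenyon cell axons and DIP-delta on dopaminergic neurons are needed for the axons to regrow into the medial zones of the gamma lobe. Because binding is selective, the members fall into groups, each a DIP or a few related DIPs with the Dprs they bind, and the results follow those groups.

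The measured cells were mushroom body output neurons, the cells that read out the mushroom body for the rest of the brain, labelled as γ5β′2a, β′2mp or β′2mp_bilateral. The bantam sponge flies carried UAS-CD8::GFP, a split GAL4 made of R14C08-p65.AD and R15B01-GAL4.DBD (together MB011B), and UAS-bantam_sponge opposite both parts of the split GAL4. The scramble sponge flies carried the same reporter and split GAL4 with UAS-scramble_sponge in those places. A sponge is a transcript with many binding sites for a microRNA, here bantam, that is meant to hold it away from its targets. Flies were mated females of 3 to 4 days after eclosion, their brains were taken from ZT12 to ZT13.5 (zeitgeber hours, counted from lights-on), and each genotype had 3 libraries that the labels call biological replicates. GFP-positive cells were sorted, so a sorted pool can also hold other cells, and fewer cells of a type cannot be told apart from less RNA per cell.

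The deposited values are 1 log2 fold of the bantam sponge over the scramble sponge, 1 mean log2 CPM (reads scaled to library size) and 1 unadjusted exact p per gene, with nothing per library. The mean log2 CPM is a fixed function of 6 read counts, so the counts behind it were searched for and kept where a single set of whole reads matched the deposited mean, fold and p together. This gave the reads in each library for 18 of the 27 members. For the other 9, which have the highest mean log2 CPM, only genotype means and an interval could be had. The effective library sizes, in megareads, were 119, 43.8 and 8.18 for the bantam sponge and 98.0, 43.6 and 5.31 for the scramble sponge, a range of 22.4 times. Libraries are called largest, middle and smallest within their genotype, and lists of 3 values follow that order. Which library carries which replicate number, and which were sequenced on the second instrument, is not known, so like-sized libraries are not treated as pairs. A single read was worth between 0.00840 CPM in the largest and 0.188 CPM in the smallest library, and 3 reads, the limit that a count of 0 allows, 0.0252 to 0.565 CPM. Both limits describe counting error alone, because 25 PCR cycles make many reads from a single molecule. Folds given below as at least a value set the mean of the genotype with reads over that limit of 3 reads. They leave out the spread between libraries.

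VGlut, the vesicular glutamate transporter that marks these glutamatergic neurons, averaged 1550 CPM with the bantam sponge and 1775 CPM with the scramble sponge, and all 10 pan-neuronal markers had reads. Markers of other cells were present too. The summed mean level of 9 hemocyte markers with reads, of 11 listed, was 882 CPM with the bantam sponge and 4227 CPM with the scramble sponge, with He and eater at 0. Most of that gap came from the prophenoloxidase genes PPO1, at 0 CPM with the bantam sponge and 1336 CPM with the scramble sponge, and PPO2, at 142 CPM and 1989 CPM in the same order. Pxn went the other way, at 728 CPM with the bantam sponge and 443 CPM with the scramble sponge. For 10 of 10 glial markers the sums were 2288 CPM with the bantam sponge and 1046 CPM with the scramble sponge, although repo, the defining glial factor, was inferred at 0.982 CPM and 102 CPM in the same order. For 10 photoreceptor markers with reads, of 14, the sums were 115 CPM with the bantam sponge and 288 CPM with the scramble sponge, with Arr1, ninaA, Rh3 and Rh5 at 0. Most of the bantam sponge sum was norpA, at 85.9 CPM and 112 CPM in the same order. Of the photoreceptor folds, 1 was above 0, that of Rh4 at 15.6 CPM and 0 CPM, and 9 were below. For 6 fat body markers with reads, of 8, the sums were 231 CPM with the bantam sponge and 197 CPM with the scramble sponge, with fit and Fbp1 at 0. Nearly all of the bantam sponge sum was FASN1, at 231 CPM and 97.4 CPM in the same order. Of the fat body folds, 2 were above 0 and 4 below. Yp1, Yp2, Yp3 and apolpp stood at 0, 0.141, 0.00639 and 0.0109 CPM with the bantam sponge. With the scramble sponge they stood at 32.8, 14.5, 30.3 and 21.9 CPM. Kenyon cell markers (9 of 9 with reads) summed to 974 CPM with the bantam sponge and 1062 CPM with the scramble sponge, with 2 folds above 0 and 7 below. The highest of them with the bantam sponge were dnc, at 357 and 184 CPM in the same order, and mub, at 338 and 202 CPM, while ey was at 0 and 5.35 CPM. Cholinergic markers (2 of 2) summed to 488 and 293 CPM, and GABAergic markers (2 of 2) to 219 and 192 CPM. Each of these lists held opposite directions. ChAT stood at 470 and 252 CPM and VAChT at 17.5 and 41.1 CPM. Gad1 stood at 49.9 and 146 CPM and VGAT at 169 and 45.9 CPM. An unadjusted exact p under 0.05 by the authors' deposited table was found for 1 hemocyte marker (PPO1), 1 glial marker (e), 1 photoreceptor marker (Arr2) and 2 fat body markers (Yp1 and Yp3) and for 0 of the other lists, and no marker passed the adjusted threshold. The sums are genotype means with no range per library, and the part of these cells in the values below was not tested.

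No member changed past the threshold of an adjusted p of 0.05. Benjamini-Hochberg adjustment over all rows of the authors' deposited table gave an adjusted p of 1 for every member and called 0 of 17117 rows, a background of 0%. At an unadjusted exact p under 0.05 by the authors' deposited table, 1 of 27 members with reads was called (3.70%), against 388 of 9286 genes with reads, a background of 4.18%. That member was dpr16, lower with the bantam sponge, where the background in the same direction is 3.12%; the background of higher genes is 1.06% and no member was among them. The members' share is close to that of genes in general.

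The folds of the members went both ways. In the authors' deposited table, 14 of 27 members with reads had a fold above 0 and 13 a fold below 0 (51.9% above, beside 46.5% of all genes with reads). Their median log2 fold was 0.35, beside -0.13 for all genes with reads. The 4 members that had no read in 1 genotype lie on the same side of that median when set to the smallest fold their reads allow, so the median, 0.35, cannot move by this. As levels, 18 of the 27 members lay above the median mean log2 CPM of genes with reads (5.04), and the members' own median was 6.37.

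**Figure D1:**
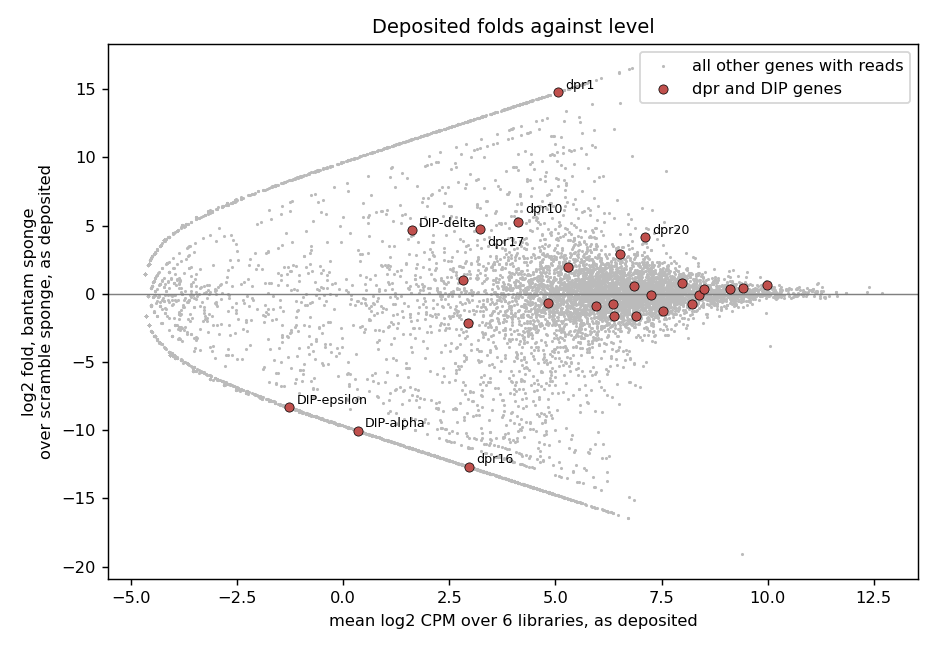
Deposited log2 fold (bantam sponge over scramble sponge) on the y axis against the deposited mean log2 CPM on the x axis, for genes with reads; red points are the 27 dpr and DIP genes, labelled where the fold is over 4 in size. The outer curves are genes with no read in 1 genotype, and dpr1, dpr16, DIP-alpha and DIP-epsilon lie on them.

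Per length of exon, the family was dominated by a few genes. The 4 highest members, dpr7, dpr21, DIP-gamma and dpr12, held 68.0% of the summed CPM per kb of all members with the bantam sponge and 67.5% with the scramble sponge. In CPM per kb, dpr7 stood at 409 with the bantam sponge and 320 with the scramble sponge, dpr21 at 329 and 348, DIP-gamma at 394 and 257, and dpr12 at 166 and 124, in the same order of genotypes. No gene of this set had recovered library values, and the intervals of their folds below are wider than the distances between neighbours in this order, so the order among them is a description. At the other end, DIP-delta, DIP-alpha and DIP-epsilon averaged under 1 CPM per kb over both genotypes, at 0.628, 0.140 and 0.118.

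**Figure D2:**
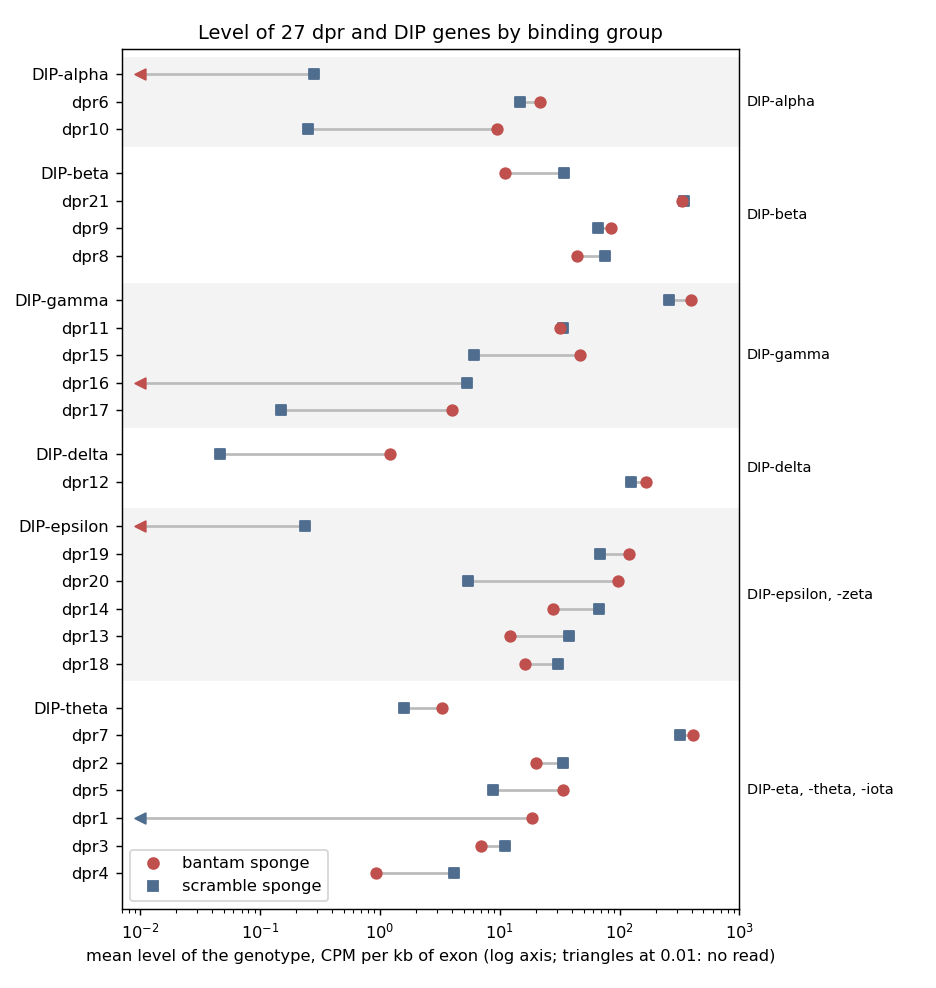
Mean level of each genotype in CPM per kb of exon (log x axis) for the 27 members with reads, grouped by the DIP that binds them; red circles are the bantam sponge, blue squares the scramble sponge, and triangles at 0.01 mark a genotype with no read. DIP-gamma is the only DIP at the level of the highest dpr genes, while DIP-alpha, DIP-delta and DIP-epsilon lie far below most of the dpr genes they bind.

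DIP-gamma, the receptor of Dpr11, Dpr15, Dpr16 and Dpr17, was the most abundant member in CPM. It lies on chromosome 3R at 28925004 to 28970372, minus strand (dm6, Ensembl annotation), and 83 of its exonic bases overlap CG11828 on the other strand. It averaged 1223 CPM with the bantam sponge and 799 CPM with the scramble sponge, as inferred from the deposited mean and fold. Its log2 fold in the authors' deposited table was 0.61 (exact p = 0.659), with a 95% interval of -2.29 to 3.52 from the dispersion that this p implies. The interval is the narrowest of the family and still allows a change of several-fold in either direction.

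The Dprs of that group were less abundant and behaved unlike each other. dpr11, for the ligand known from R7 photoreceptors, averaged 149 CPM with the bantam sponge and 155 CPM with the scramble sponge (log2 fold -0.06 in the authors' deposited table, exact p = 0.977, 95% interval -4.75 to 4.63). dpr15 had 0, 0.0686 and 491 CPM in the bantam sponge libraries, against 0, 16.9 and 47.1 CPM in the scramble sponge libraries. The smallest bantam sponge library alone held 88.5% of its summed CPM, and the groups overlapped; the log2 fold of 2.94 in the authors' deposited table (exact p = 0.419) changed sign without that library. dpr17, which lies 27.4 kb from dpr15 on 3R, had 0, 0 and 53.8 CPM with the bantam sponge, against 1.12, 0.711 and 0.188 CPM with the scramble sponge. It too was high in the smallest bantam sponge library and unread in the other two of that genotype, so that its log2 fold of 4.72 in the authors' deposited table (exact p = 0.340) changed sign without it.

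dpr16 was the member with the smallest p. It had 0, 0 and 0 reads in the bantam sponge libraries, against 16, 4 and 248 reads in the scramble sponge libraries, or 0.163, 0.0918 and 46.7 CPM. Every scramble sponge library thus had reads and no bantam sponge library did. A genotype without reads was common in these data: at a mean log2 CPM from 0 upward it was found for 943 of 7252 genes, a background of 13%, and for 3 of 26 members (11.5%), dpr16, dpr1 and DIP-alpha. For dpr16, 99.5% of the summed CPM came from the smallest scramble sponge library, and in the largest and middle ones the level was within a few times the limit of detection. The means were 0 CPM with the bantam sponge and 15.7 ± 26.9 CPM with the scramble sponge (SD, n = 3 each), at least 102-fold lower with the bantam sponge when 3 reads are allowed in each of its libraries. The exact p was 0.0466 by the authors' deposited table, and the adjusted p was 1 by Benjamini-Hochberg. With a library left out at the same dispersion, the exact p stayed under 0.05 without the largest (0.0390) or the middle (0.0363) scramble sponge library, was 0.289 without the smallest one, and was 0.141 to 0.165 without 1 of the bantam sponge libraries. An exact permutation test of the mean CPM over the 6 libraries gave p = 0.10, two-sided, the smallest that 3 against 3 libraries allow. dpr16 lies on 3R at 5150908 to 5170121, plus strand, and 118 of its exonic bases overlap cno on the other strand; the library chemistry does not mark strand, so reads there could come from either gene.

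**Figure D3:**
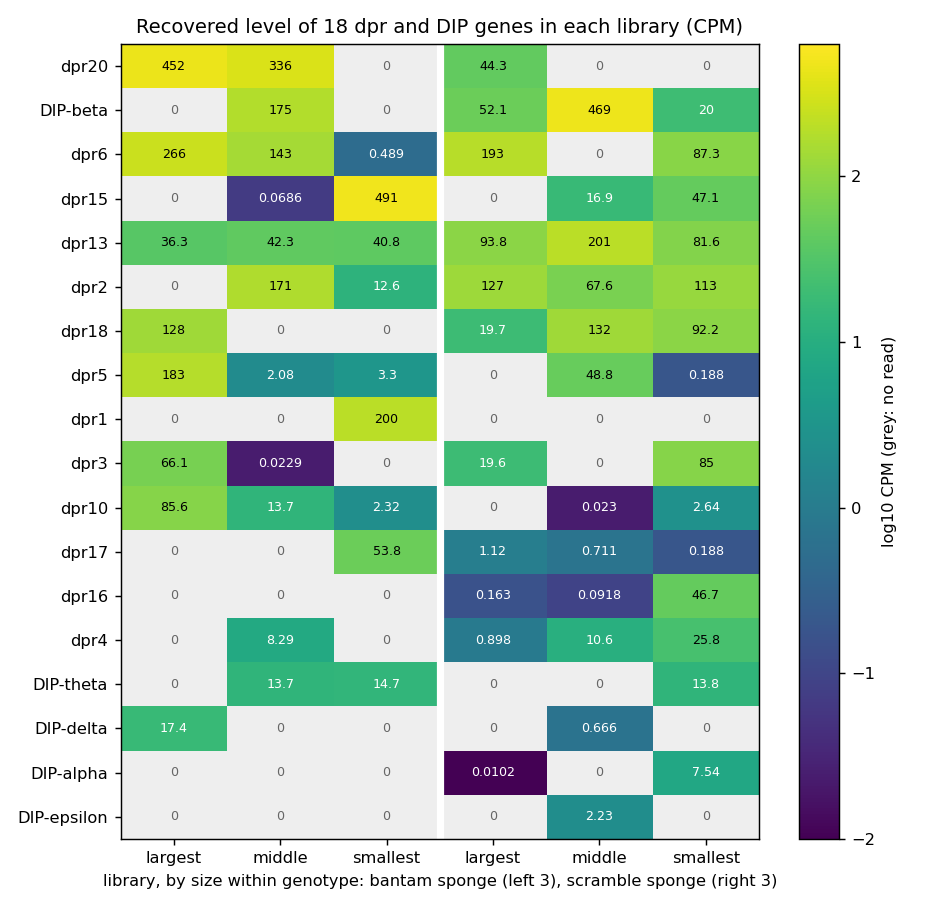
CPM in each library for the 18 members whose reads were recovered, with the 3 bantam sponge libraries on the left and the 3 scramble sponge libraries on the right, each ordered by library size; colour is log10 CPM and grey is no read. Most members are high in 1 or a few libraries and unread in others, and dpr13 is the only one with reads in all 6.

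This unevenness ran through the recovered members. Of the 18, 1 had reads in all 6 libraries, 4 in 5, 6 in 4, 3 in 3, 2 in 2 and 2 in 1. The library with the highest CPM of a member held a median of 71.3% of its summed CPM (34.8% to 100%), and more than 50% for 12 of the 18. Members detected ranged from 8 of 18 in the largest bantam sponge library to 14 of 18 in the smallest scramble sponge library, so the number did not follow depth. Genes in general showed it too: at a mean log2 CPM of 0 to 7, 1 of 16 members (6.25%) and 10.99% of 5231 genes were read in 1 library only, and 2 of 16 members (12.5%) and 12.4% of genes in 2.

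DIP-delta and its ligand Dpr12, the pair known from the mushroom body gamma lobe, stood at opposite ends of the range. dpr12 averaged 780 CPM with the bantam sponge and 586 CPM with the scramble sponge (log2 fold 0.41 in the authors' deposited table, exact p = 0.773, 95% interval -2.61 to 3.44). DIP-delta had 17.4, 0 and 0 CPM in the bantam sponge libraries, against 0, 0.666 and 0 CPM in the scramble sponge libraries. It was thus read in 1 library of each genotype, at 2076 and 29 reads, and the groups overlapped. Its log2 fold of 4.67 in the authors' deposited table (exact p = 0.399) changed sign when the largest bantam sponge library was left out.

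DIP-alpha, which guides neurites to their layer in the optic lobe and motor axons to leg muscles, was nearly absent, while both its ligands were read. It had no read with the bantam sponge, against 1, 0 and 40 reads with the scramble sponge, or 0.0102, 0 and 7.54 CPM; it was at least 16.4-fold lower with the bantam sponge by means, from 1 library (exact p = 0.169 by the authors' deposited table). Its exons share 158 bases with CG2875 on the same strand and 106 with ppk8 on the other. The genes for its ligands, dpr6 and dpr10, are neighbours on 3L, 8.09 kb apart and on opposite strands, dpr6 at 9974651 to 10139360 and dpr10 at 10147454 to 10186108.

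dpr6 had 266, 143 and 0.489 CPM in the bantam sponge libraries, against 193, 0 and 87.3 CPM in the scramble sponge libraries. The groups overlapped, and the means were 136 ± 133 CPM with the bantam sponge and 93.5 ± 96.8 CPM with the scramble sponge (SD, n = 3 each). The reads of dpr6 were found among 82116 sets with the same mean and have the smallest margin to the next best set of the 18 members. dpr10 had 85.6, 13.7 and 2.32 CPM in the bantam sponge libraries, against 0, 0.0230 and 2.64 CPM in the scramble sponge libraries. It was higher with the bantam sponge in its largest and middle library than in any scramble sponge library, and the smallest libraries of both genotypes were alike. Its log2 fold in the authors' deposited table was 5.28 (exact p = 0.218, 95% interval -4.41 to 15.0), its fold stayed above 0 with any 1 library left out, and the exact permutation p over the 6 libraries was 0.20, two-sided.

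DIP-beta, a receptor with a wide choice of partners, was read unevenly, while the folds of its closest ligands were small. It had 0, 175 and 0 CPM in the bantam sponge libraries, against 52.1, 469 and 19.98 CPM in the scramble sponge libraries. Every scramble sponge library had reads and only the middle bantam sponge library did, at a level inside the scramble sponge range. The log2 fold was -1.63 in the authors' deposited table (exact p = 0.591). Leaving out the middle bantam sponge library gave p = 0.0185 by the exact test at the same dispersion, with no read left in that genotype, and leaving out the middle scramble sponge library turned the sign.

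Its ligand genes dpr8, dpr9 and dpr21 were abundant in both genotypes. dpr8 averaged 220 CPM with the bantam sponge and 376 CPM with the scramble sponge (log2 fold -0.77 in the authors' deposited table, exact p = 0.626, 95% interval -4.13 to 2.59). dpr9 averaged 407 CPM with the bantam sponge and 319 CPM with the scramble sponge, a log2 fold of 0.35 in the authors' deposited table (exact p = 0.828). dpr21 averaged 326 CPM with the bantam sponge and 345 CPM with the scramble sponge, a log2 fold of -0.08 in the authors' deposited table (exact p = 0.958). As a sum, these ligands stood at 953 CPM with the bantam sponge and 1040 CPM with the scramble sponge, and DIP-beta at 58.3 ± 101 CPM and 180 ± 250 CPM in the same order (SD, n = 3 each).

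The group of DIP-epsilon and DIP-zeta was read almost wholly on its Dpr side. DIP-epsilon had 97 reads in the middle scramble sponge library (2.23 CPM) and none in the other 5 libraries (exact p = 0.237 by the authors' deposited table), at least 4.83-fold lower with the bantam sponge by means. DIP-zeta had none. Their 5 ligand genes summed to 775 CPM with the bantam sponge and 666 CPM with the scramble sponge.

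dpr13 was the only recovered member with reads in all 6 libraries. It had 36.3, 42.3 and 40.8 CPM in the bantam sponge libraries, against 93.8, 201 and 81.6 CPM in the scramble sponge libraries. Among the recovered members, the libraries of the genotypes did not overlap for dpr13 and dpr16. The share of such genes over all genes was not computed, so this is a description and not a result about the members. For dpr13, all 3 bantam sponge libraries lay below all 3 scramble sponge libraries. Its means were 39.8 ± 3.10 CPM and 125 ± 65.5 CPM in that order (SD, n = 3 each). The exact permutation test gave p = 0.10, two-sided, the smallest these libraries allow, and the log2 fold in the authors' deposited table was -1.66 (exact p = 0.454, 95% interval -6.55 to 3.24). With each library left out the log2 fold stayed between -1.89 and -1.14, the narrowest range among the members read in both genotypes. Its dispersion, 2.71, was the lowest of the 18 recovered members, beside a common dispersion of 4.504 for all genes.

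dpr20 was read mostly in the bantam sponge libraries. It had 452, 336 and 0 CPM in the bantam sponge libraries, against 44.3, 0 and 0 CPM in the scramble sponge libraries. The largest and middle bantam sponge libraries were above every scramble sponge library, and the smallest library of each genotype had no read. The means were 263 ± 235 CPM with the bantam sponge and 14.8 ± 25.6 CPM with the scramble sponge (SD, n = 3 each), and the log2 fold in the authors' deposited table was 4.15 (exact p = 0.228, 95% interval -3.58 to 11.9). Without the largest scramble sponge library, the only one of that genotype with reads, the exact test gave p = 0.0225; the exact permutation p over all 6 was 0.40, two-sided.

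The other ligands of the group showed no shared direction. dpr18 had 128, 0 and 0 CPM in the bantam sponge libraries, against 19.7, 132 and 92.2 CPM in the scramble sponge libraries, and the groups overlapped (exact p = 0.786 by the authors' deposited table). dpr14 averaged 110 CPM with the bantam sponge and 261 CPM with the scramble sponge, a log2 fold of -1.25 in the authors' deposited table (exact p = 0.478). dpr19 averaged 320 CPM with the bantam sponge and 184 CPM with the scramble sponge, a log2 fold of 0.80 in the authors' deposited table (exact p = 0.625).

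**Figure D4:**
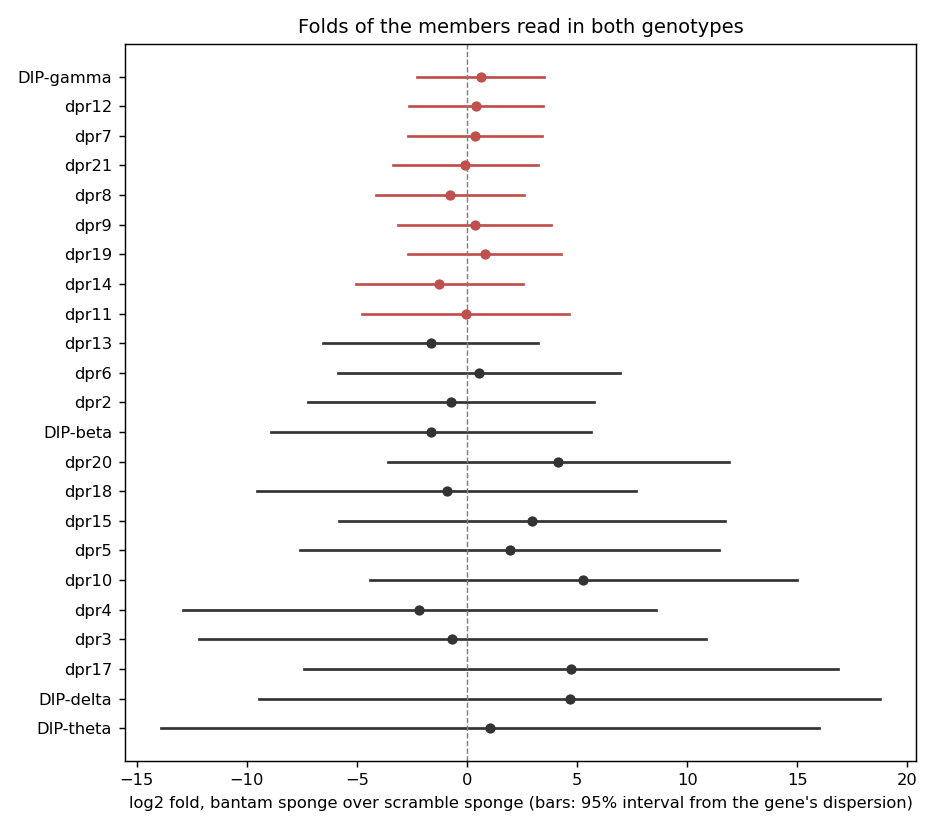
Log2 fold (bantam sponge over scramble sponge, x axis) with its 95% interval, for the 23 members read in both genotypes, ordered by interval width. The interval uses the dispersion that the deposited values imply for each gene. Red marks the 9 members without recovered reads. All 23 intervals hold 0, and their widths run from 5.81 to 29.9 on the log2 scale.

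The last group joins DIP-eta, DIP-theta and DIP-iota, of which only DIP-theta was read, with 6 Dpr ligands. DIP-theta and DIP-eta are neighbours on 2L, 8.34 kb apart, DIP-eta at 5601723 to 5617946 and DIP-theta at 5626291 to 5658560, both on the minus strand. DIP-theta had 0, 13.7 and 14.7 CPM in the bantam sponge libraries, against 0, 0 and 13.8 CPM in the scramble sponge libraries. The 3 libraries that had reads were close to each other in level across both genotypes (exact p = 0.844 by the authors' deposited table), and 363 of its exonic bases overlap lncRNA:CR44822 on the same strand.

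dpr7, on the small chromosome 4, was the highest member per kb and averaged 620 CPM with the bantam sponge and 484 CPM with the scramble sponge (log2 fold 0.36 in the authors' deposited table, exact p = 0.805, 95% interval -2.70 to 3.41). dpr1, the founding member, named for its part in the proboscis extension response to salt, was the opposite case. Its reads came from the smallest bantam sponge library alone, 1637 of them, at 200.1 CPM, and the other 5 libraries had none. It was at least 301-fold higher with the bantam sponge by means, with an exact p of 0.0565 by the authors' deposited table. The exact permutation test over the 6 libraries cannot judge it. A single library carried every read, so all regroupings give the same size of difference and the permutation p of 1.0 was fixed. At the same dispersion the exact p was 0.0476 without the largest and 0.0445 without the middle bantam sponge library, 0.162 to 0.184 without a scramble sponge library, and there was nothing left to test without the smallest bantam sponge library.

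dpr2 had 0, 171 and 12.6 CPM in the bantam sponge libraries, against 127, 67.6 and 113 CPM in the scramble sponge libraries. The scramble sponge libraries were within a factor of about 2 of each other and the bantam sponge libraries spanned them (exact p = 0.786 by the authors' deposited table). dpr3 had 66.1, 0.0229 and 0 CPM in the bantam sponge libraries, against 19.6, 0 and 85.0 CPM in the scramble sponge libraries, and overlapped throughout (exact p = 0.877 by the authors' deposited table). dpr5 and dpr4 lie 27.5 kb apart on 3R and did not share their pattern. dpr5 had 183, 2.08 and 3.30 CPM in the bantam sponge libraries, against 0, 48.8 and 0.188 CPM in the scramble sponge libraries. dpr4 had 0, 8.29 and 0 CPM in the bantam sponge libraries, against 0.898, 10.6 and 25.8 CPM in the scramble sponge libraries. By the authors' deposited table the exact p was 0.606 for dpr5 and 0.603 for dpr4, and 469 exonic bases of dpr4 overlap asRNA:CR45056 on the other strand.

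Neighbouring members, then, could be highest in the same library or in different ones. dpr15 and dpr17 were both highest in the smallest bantam sponge library, and dpr6 and dpr10 both in the largest bantam sponge library. dpr5 was highest in the largest bantam sponge library and dpr4 in the smallest scramble sponge library.

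Over the recovered members, the direction of a fold often hung on a single library. Of the 18 members, 7 changed the sign of their fold when some library was left out: DIP-beta, DIP-delta, dpr3, dpr5, dpr6, dpr15 and dpr17. The other 11 kept it, among them dpr10, dpr13 and dpr20. These 11 include dpr1, dpr16, DIP-alpha and DIP-epsilon, which were read in a single genotype. Their sign could not turn whichever library was left out, so keeping it says nothing about how stable their folds are. Of 106 exact tests with a library left out, 6 gave a p under 0.05, from dpr1, dpr16, dpr20 and DIP-beta. In each of these 6, a single genotype had reads. The tests share libraries, and the share over all genes was not computed.

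**Figure D5:**
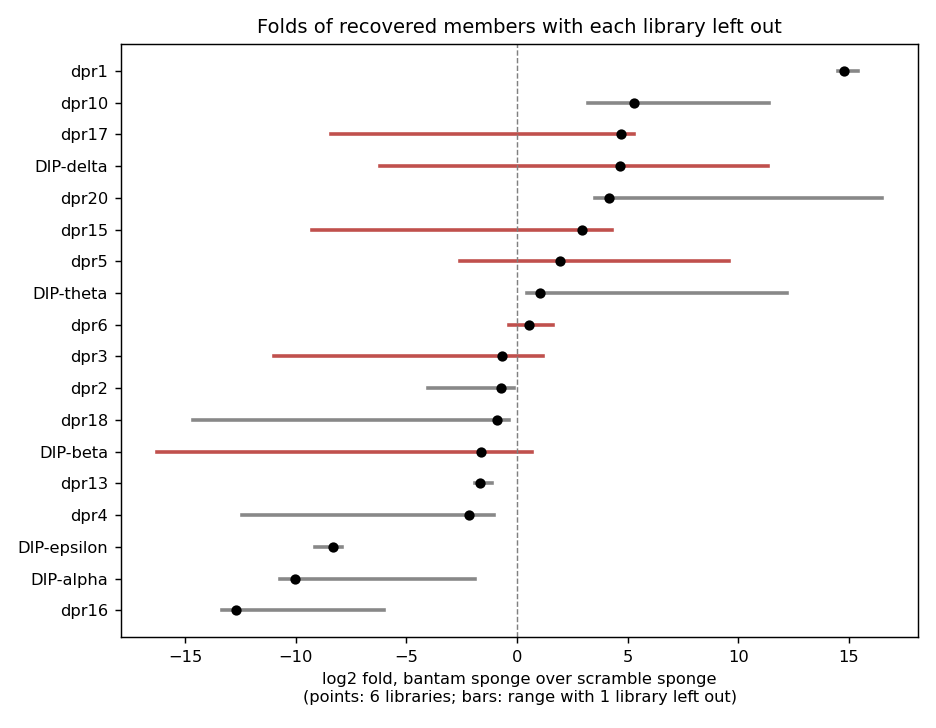
Log2 fold (bantam sponge over scramble sponge, x axis) of the 18 recovered members with all 6 libraries (points) and its range with each library left out in turn (bars); red bars cross 0. Members read in 1 genotype only, such as dpr1 and dpr16, keep their side because the other genotype has nothing to remove.

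The 9 members without recovered reads had the lowest dispersions of the family. DIP-gamma, dpr7, dpr8, dpr9, dpr11, dpr12, dpr14, dpr19 and dpr21 had absolute log2 folds of at most 1.25 in the authors' deposited table, 5 above and 4 below 0, with exact p-values of 0.478 or more. Their dispersions of 1.25 to 2.55 compare with 2.71 to 10.04 for the recovered members, and their intervals were 5.81 to 9.37 wide on the log2 scale. Because these genes are the more abundant ones, level and dispersion cannot be told apart in this comparison. How even they were between libraries is not known.

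Other genes of neuronal recognition were also called at about the background share. Of 81 listed (the Beat and Side families, Dscams, cadherins, teneurins, guidance receptors and their ligands), all were found in the table and 74 had reads, 35 with folds above 0 and 39 below, at a median log2 fold of -0.13. An unadjusted exact p under 0.05 was found for 3 of 74 (4.05%, against the background of 4.18%), and 0 passed the adjusted threshold. unc-5, a netrin receptor that mediates repulsion, was inferred at 260 CPM with the bantam sponge and 3.36 CPM with the scramble sponge (exact p = 0.0221 by the authors' deposited table). sns, a nephrin-like adhesion protein, was inferred at 0.00658 CPM with the bantam sponge, under the limit of 3 reads in any library, and 76.8 CPM with the scramble sponge (exact p = 0.00465 by the authors' deposited table). 18w, a Toll family receptor, had no read with the bantam sponge and was inferred at 103 CPM with the scramble sponge (exact p = 0.0132 by the authors' deposited table).

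The 6 most abundant genes of that list were Fas1, beat-VI, Sema2b, Ten-a, Nrx-1 and Con. Fas1, an adhesion protein of axon bundles, averaged 2464 CPM with the bantam sponge and 2145 CPM with the scramble sponge, and beat-VI, a member of the Beat receptor family, averaged 1400 CPM and 1109 CPM in the same order. Sema2b, a secreted semaphorin, and Ten-a, a teneurin of synaptic matching, stood at 722 and 663 CPM with the bantam sponge and 623 and 625 CPM with the scramble sponge. Nrx-1, the presynaptic neurexin, and Con, a homophilic adhesion protein, stood at 709 and 698 CPM with the bantam sponge and 489 and 471 CPM with the scramble sponge. Their log2 folds in the authors' deposited table lay between 0.09 and 0.57, with exact p-values from 0.694 to 0.952. DIP-gamma thus stood beside the most abundant recognition genes of these cells in CPM.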

How the data were processed

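Sorted neurons gave poly(A) RNA that was made into cDNA by SMART-seq2 with 25 PCR cycles and into Nextera XT libraries, per the labels' protocols. Per the labels, 2 replicates had paired 75-base reads (NextSeq) and 1 had paired 150-base reads (HiSeq). The submitters' processing notes name STAR, Picard, HTSeq, edgeR and the dm6 build, with no versions. The log2 folds and mean log2 CPM were computed and deposited by the authors, as were unadjusted exact-test p-values (the deposited p-value column). Adjustment by Benjamini-Hochberg over all 17117 rows, two-sided at 0.05, was done here.

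Mean log2 CPM values shared by at least 50 genes stand for 1 read in 1 library and were solved for 6 library sizes and the common dispersion, taking priors of 2 reads (mean) and 0.125 reads (fold), the tool's defaults. Of 311 low genes outside that solution, 311 (100%) fell within 1e-12 of a value for up to 10 reads, and 0 did after a shift. For members, sets of whole reads with the deposited mean were listed, up to a mean log2 CPM of 7, or 7.6 for reads in at most 3 libraries. The dispersion was solved from the fold, and a set was kept where its p matched within a relative 1e-08 (1e-09 where all libraries were searched) and every other set matched at least 5 times less closely. The search, the intervals and the tests were checked on simulated data. Sizes include any normalization factor.

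For members without recovered reads, genotype means came from the deposited mean and fold, and dispersions from the fold and p. In the 14 recovered members read in both genotypes, these means differed by at most 3.42% and dispersions by at most 1.04% from the recovered ones. Intervals of 95% use an F distribution with the dispersion taken as known. The labels call the libraries biological replicates without naming separate flies or days, so p-values measure the spread between these libraries. Levels per kb use the union of exons in the Ensembl annotation. Python 3.11.15, numpy 2.4.6 and scipy 1.17.1 were used. Members and lists were chosen with earlier results of these data known. Every member with a read is named, and of the other recognition genes those with an unadjusted p under 0.05 and the 6 highest. Other p adjustments, filters, centring and single libraries left out were tried. Seed matches, promoters and proteins were not analysed here.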

Additional observations from a re-analysis of the deposited data

How the results depend on the processing

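The count of 0 members past the adjusted threshold was also 0 under Holm adjustment, over rows with reads, and over rows whose mean log2 CPM reached 3. The count of 1 member (dpr16) with an unadjusted p under 0.05 was 0 above that level, because dpr16 lies just under it (mean log2 CPM 2.97). A Wald test with the common dispersion was run on the 23 members read in both genotypes, which leaves out dpr16. It gave a p under 0.05 for 1 of them, dpr10 (Wald p = 0.0358), whose exact p was 0.218 by the authors' deposited table. The share over all genes was not computed for the Wald test. Counts of folds above 0 (12 to 14), the median fold (0.35 to 0.37), the 23 intervals that hold 0, the summed levels and the 3 other recognition genes kept their values within 1.5 times or 0.1 on the log2 scale under the alternatives tried. Leaving out each library was planned, but the recovered members it was run on were known only afterwards; the permutation test over libraries and the filter on other recognition genes were chosen after seeing the data. With each library left out, the 1 call among the 18 recovered members ranged from 0 to 2, their 9 folds above 0 from 6 to 10, and their median log2 fold of -0.06 from -1.31 to 0.83. It was 0 by the exact permutation test, which cannot go below p = 0.10 with 3 against 3 libraries. Leaving out the smallest bantam sponge library or the smallest scramble sponge library left no call. No paired analysis was possible because the recovered libraries carry no replicate number. Alternatives on bantam seed matches were not run. Depth limits the smallest libraries most: 3 reads there are 0.367 CPM for the bantam sponge and 0.565 CPM for the scramble sponge.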

Other observations

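DIP-kappa and DIP-lambda stand in the deposited table under the older symbols CG31814 and CG45781 and were therefore outside the rule that chose the members. DIP-kappa had 109, 0.183 and 3.42 CPM in the largest, middle and smallest bantam sponge libraries, against 0, 41.9 and 62.0 CPM in the scramble sponge libraries. The genotypes overlapped, and the exact p was 0.975 by the authors' deposited table. DIP-lambda had no read in any bantam sponge library, against 0, 1.51 and 30.5 CPM in the scramble sponge libraries, and the exact p was 0.0788 by the authors' deposited table. Like dpr16 and DIP-alpha, it had its highest level in the smallest scramble sponge library, at 162 reads of 228.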
